A study of Mus musculus with 6 samples.

Results

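DNA methylation was described at 129 CpGs in and around 7 T cell surface genes, Thy1, Cd5, Cd6, Cd2, Cd7, Cd27 and Cd69, out of 1175571 CpGs on the autosomes and chromosome X that met the same read requirement. The CpGs were chosen by position, within the gene or 10 kb either side of it, and selected on read depth, with 5 or more reads in all 6 libraries. The genes themselves were proposed with earlier results of these data known, so their levels are given as a description. Reduced representation bisulfite sequencing (RRBS) reads the methylation of CpGs near MspI sites, and it was applied to CD8+ T cells enriched with a MagniSort kit from lymph nodes of C57BL/6N mice. There were 3 genotypes with 2 libraries each, every library from a separate mouse. They were WT (labelled wt), hSTAT5B (hSTAT5B +/T), which carried the non-mutated human transgene, and hSTAT5BN642H (hSTAT5B N642H +/T), which carried the transgene with the activating N642H mutation. Both transgenes were driven by Vav1 sequences in blood-forming cells, each construct was represented by 1 transgenic line, and the hSTAT5BN642H mice had a CD8+ T cell disease, so that the effect of the mutation, the line and the disease cannot be told apart. The WT and hSTAT5BN642H mice were 13 weeks old, and the age of the hSTAT5B mice used for RRBS is not given separately in the sources used here.

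The 7 genes encode surface proteins of T cells. CD2 is an adhesion receptor that binds CD48 in mice, CD5 and CD6 are scavenger receptor cysteine-rich proteins that tune T cell receptor signalling, and THY1 is a small glycosylphosphatidylinositol-anchored protein of mouse T cells. CD7 is an immunoglobulin superfamily member, CD27 is a costimulatory receptor of the tumor necrosis factor receptor superfamily that binds CD70, and CD69 is a C-type lectin that appears early after activation and retains lymphocytes in lymphoid tissue by acting on S1PR1. In mammals, CpGs near the starts of expressed genes are usually unmethylated, whereas CpGs in gene bodies and between genes are usually methylated.

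The stretches below carried the CpGs on which the description turns, and they were read from the GRCm38 genome on the strand of the gene, 5′ to 3′. Capitals mark the CpGs that had 5 or more reads in all 6 libraries. For Thy1, Cd5, Cd6 and Cd27 they show, of the runs of 2 or more CpGs spaced 50 bp or less, the one with the lowest mean level in hSTAT5BN642H relative to WT, and for Cd69 the single CpG with the widest difference. The Cd6 intron run that was higher in hSTAT5BN642H and 2 runs in the Cd2 intron are shown for contrast.
Thy1 intron, chr9:44044916-44044964, plus strand: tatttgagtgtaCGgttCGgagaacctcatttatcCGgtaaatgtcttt
Cd5 exon near the start, chr19:10738401-10738469, minus strand: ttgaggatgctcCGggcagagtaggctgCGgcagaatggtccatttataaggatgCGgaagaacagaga
Cd6 exon near the start, chr19:10829621-10829667, minus strand: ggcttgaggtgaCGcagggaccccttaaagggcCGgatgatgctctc
Cd6 intron, chr19:10818387-10818482, minus strand: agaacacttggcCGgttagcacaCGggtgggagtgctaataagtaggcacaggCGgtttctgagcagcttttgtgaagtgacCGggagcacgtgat
Cd2 intron, chr3:101283563-101283633, minus strand: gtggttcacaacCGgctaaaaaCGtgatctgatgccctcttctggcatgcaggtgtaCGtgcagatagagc
Cd2 intron, chr3:101279588-101279642, minus strand: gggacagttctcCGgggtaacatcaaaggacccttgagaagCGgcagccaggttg
Cd27 coding exon and intron, chr6:125233410-125233460, minus strand: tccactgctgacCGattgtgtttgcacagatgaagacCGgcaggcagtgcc
Cd69 upstream, chr6:129284192-129284241, minus strand: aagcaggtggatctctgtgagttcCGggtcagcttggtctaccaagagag
Each of these 8 stretches had 1 exact copy in the reference chromosomes, counting both strands. The Cd2 stretch at chr3:101283563-101283633 and the Cd69 stretch lay in sequence that the reference marks as repeats.

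Averaged over the 129 CpGs, the methylation level was 59.95% and 58.2% in the WT libraries, 55.9% and 56.8% in the hSTAT5B libraries, and 55.3% and 53.9% in the hSTAT5BN642H libraries. The 2 hSTAT5BN642H libraries were the lowest of the 6, both hSTAT5B libraries lay between them and WT, and no genotypes overlapped. The difference of the means was -4.43 percentage points for hSTAT5BN642H minus WT and -2.69 for hSTAT5B minus WT, where all 1175571 CpGs gave -0.482 and 0.187. Without WT replicate 1, the hSTAT5BN642H difference was -3.55. With reads pooled over the CpGs it was -2.30, and the transgenic genotypes then overlapped, at 54.2% and 55.3% in hSTAT5B and 54.9% and 55.95% in hSTAT5BN642H. In gene bodies alone they overlapped too, and the difference was -2.89. With 1 read required, hSTAT5B minus WT was -5.23. These levels are averages over the cells of a sample, and a change in the mix of cells and a change within each cell cannot be told apart.

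The genes differed widely in level. Cd5 and Cd6 had the highest WT means, 70.5% ± 1.58 (SD, n = 2) and 69.9% ± 0.445, and did not differ beyond their spread. Cd2 at 65.7% ± 1.18 and Thy1 at 53.3% ± 3.10 followed. Cd7 at 37.4% ± 8.07, Cd69 at 28.2% ± 10.8 and Cd27 at 19.6% ± 0.602 were lowest, and in that order no neighbours differed beyond the spread of Cd69. Of the 129 CpGs, 42 (32.6%) had a WT mean from 20% to 80%, compared with 10.7% of all CpGs, so these windows held more CpGs of intermediate level than the genome as measured here.

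**Figure D1:**
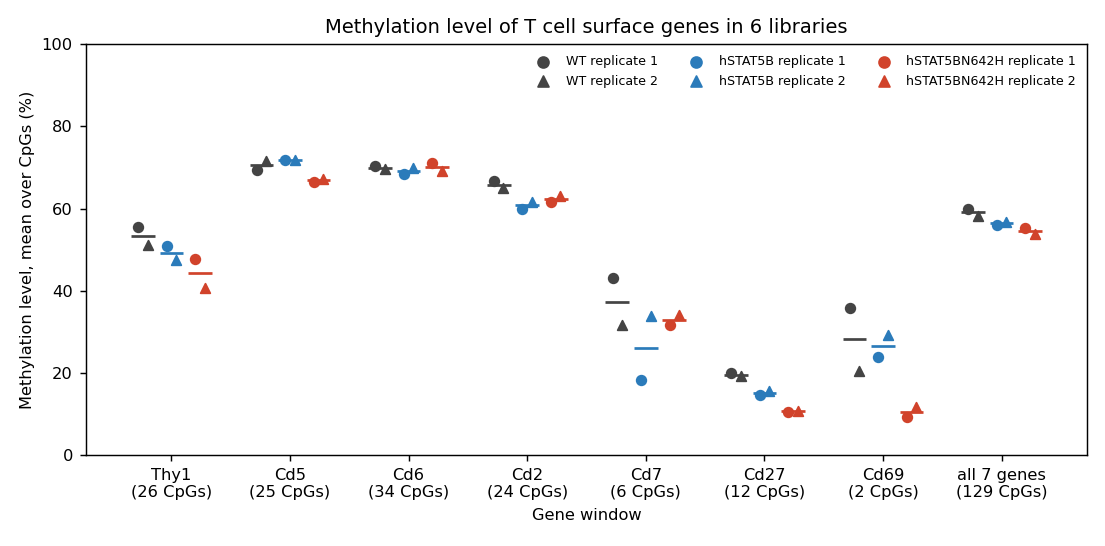
Methylation level, as the mean over the CpGs of each gene window in percent, for each library. Circles and triangles are replicates 1 and 2, and lines are genotype means. Cd27, Thy1, Cd69, Cd5 and Cd2 have both hSTAT5BN642H points below both WT points, and Cd6 has its 6 points between 68.3% and 71.2%.

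At single CpGs, the 2 libraries of hSTAT5BN642H both lay below both WT libraries at 45 of the 129 CpGs, where 12.6% of all CpGs did, and both lay above at 14, where 8.9% of all CpGs did. For hSTAT5B against WT, 33 CpGs were below, against 8.21% of all CpGs, and 13 were above, against 9.38%. For hSTAT5BN642H against hSTAT5B, 31 CpGs were below and 12 above, with 13.1% and 8.21% of all CpGs. The comparisons of the transgenic genotypes with WT share their control libraries. The counts of lower CpGs were well above the shares of all CpGs, and the counts of higher CpGs were near them.

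Because CpGs of intermediate level have more room to move, the same count was made for the 42 CpGs with a WT mean from 20% to 80%. Both hSTAT5BN642H libraries lay below WT at 18 of them, where 15.6% of all CpGs of that level did, and above WT at 9, where 20.9% did. For hSTAT5B, 16 were below and 6 above, where 13% and 21.1% of all CpGs of that level were. Against WT replicate 2 alone, both hSTAT5BN642H libraries were lower at 58 of the 129 CpGs and higher at 28, and against WT replicate 1 alone they were lower at 60 and higher at 25. The share of all CpGs was not worked out for these counts against 1 WT library, so they are a description only. Neighbouring CpGs share reads, and the 129 CpGs formed 66 runs with gaps of 50 bp or less, so these counts are not of independent sites.

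**Figure D2:**
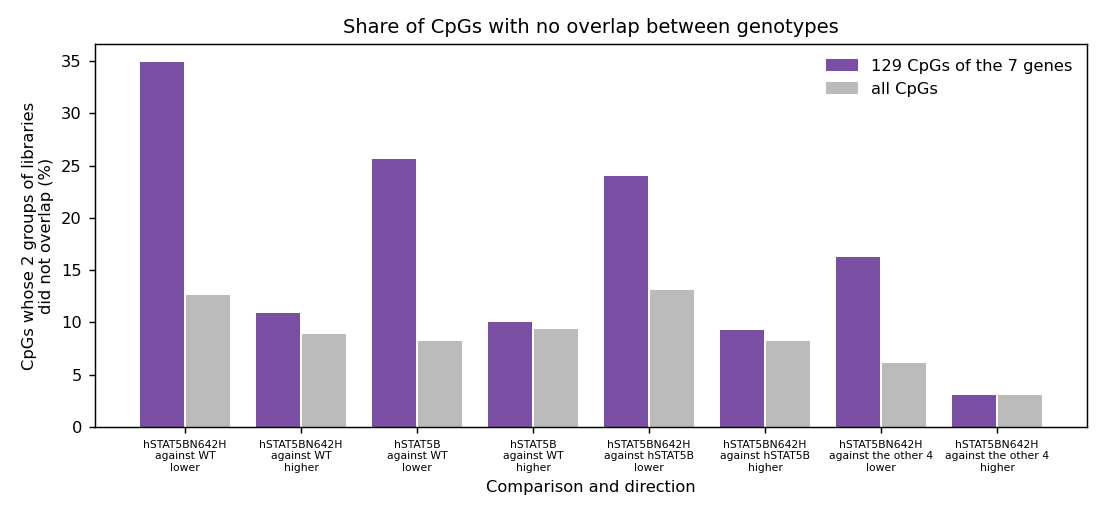
Share of CpGs, in percent, at which the libraries of the 2 groups named did not overlap, by comparison and direction. Violet bars are the 129 CpGs of the 7 genes and grey bars all 1175571 CpGs. The violet bars for the lower direction stand above the grey ones in each comparison, and the pairs for the higher direction are of similar height.

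No gene and no CpG passed an adjusted p of 0.05 in limma. The fit used the log2 ratio of methylated over unmethylated reads and covered all 20189 genes with 3 or more CpGs (0% called in each of the 3 comparisons) and all 1175571 CpGs (0% called in each). At an unadjusted p under 0.05, limma had 1642 genes for hSTAT5BN642H against WT, 1144 for hSTAT5B against WT and 1816 for hSTAT5BN642H against hSTAT5B, and 27, 16 and 12 of the 129 CpGs, where 6.28%, 4.85% and 6.27% of all CpGs were under it. A quasi-binomial model of the reads called 0.273% of all CpGs for hSTAT5BN642H against WT, among them 2 of the 129, and 0.157% for hSTAT5BN642H against hSTAT5B, among them 1 of the 129. That model came to use 1 dispersion, 1.46, for every CpG, where the CpGs' own values ran from 0 to 43.5 with a median of 0.760. An exact permutation test of 2 libraries against 2 cannot reach a p below 0.333. Of the 6 genes fitted, 4 had both hSTAT5BN642H libraries below both WT libraries (25.3% of all genes), 3 had both hSTAT5B libraries below WT (14.6%), and 2 had both hSTAT5BN642H libraries below hSTAT5B (27.8%). Cd69, with 2 CpGs, was not fitted as a gene.

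Cd27 (chr6:125232622-125237010, minus strand) had the smallest p of the 6 genes. Over 12 CpGs its level was 20.04% and 19.2% in WT, 14.7% and 15.5% in hSTAT5B, and 10.5% and 10.8% in hSTAT5BN642H. The 3 genotypes did not overlap, and the libraries of each genotype lay within 1 point of each other. hSTAT5BN642H minus WT was -8.94 points, and this ranged from -9.37 to -8.51 when each of the 4 libraries was left out in turn. On the scale of the fit the difference was a log2 ratio of -1.16 with an SE of 0.174, with an unadjusted p of 0.000533 and an adjusted p of 0.325 in limma over all genes. The difference of hSTAT5B minus WT was -4.53 points, with an adjusted p of 0.801 in limma, and -7.24 with 10 reads required.

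The Cd27 difference was at the 3′ end of the gene. The CpG 3588 bp after the start, in a coding exon, was methylated at 41.0% of 78 reads and 26.02% of 123 reads in WT, 21.1% of 90 and 21.7% of 60 in hSTAT5B, and 10.7% of 150 and 13.8% of 80 in hSTAT5BN642H. Both hSTAT5BN642H libraries lay below the other 4 libraries. The 95% Wilson intervals of the hSTAT5BN642H libraries, 6.67% to 16.6% and 7.85% to 23.0%, did not reach that of WT replicate 1, 30.8% to 52.1%, but the second overlapped that of WT replicate 2, 19.1% to 34.4%. The quasi-binomial model gave it an adjusted p of 0.0154 for hSTAT5BN642H against WT, and limma 0.764.

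Its neighbour 3563 bp after the start, on the same fragment, was at 50% and 32.7% in WT, 26.8% and 17.9% in hSTAT5B, and 18.1% and 22.2% in hSTAT5BN642H. Here both transgenic genotypes lay below WT and overlapped each other. At 4432 bp after the start, just past the gene, the level was 30% and 26.7% in WT, 9.09% and 0% in hSTAT5B, and 4.76% and 6.67% in hSTAT5BN642H, again with both transgenic genotypes below WT and overlapping. A CpG 3672 bp after the start had 9 to 17 reads a library and was at 90.9% and 81.8% in WT, 72.7% and 81.8% in hSTAT5B, and 47.1% and 77.8% in hSTAT5BN642H, the widest difference in the gene at -23.9 points. All these sites also lie in an annotated intron of Vamp1, the gene that overlaps Cd27.

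The start of Cd27 was almost unmethylated in all libraries. The 8 CpGs within 1 kb of the start averaged 3.57% and 7.89% in WT, 5.75% and 8.10% in hSTAT5B, and 5.67% and 1.22% in hSTAT5BN642H, so hSTAT5BN642H and WT overlapped there. The widest difference toward a higher level in Cd27 was 6.31 points, at 583 bp after the start, with 0% and 6.06% in WT and 11.5% and 7.14% in hSTAT5BN642H. The 250 bases before the start, in the RefSeq promoter table for GRCm38.p6 at chr6:125237028-125237277 on the minus strand, held 5 CpGs, 4 of them measured and in capitals.
Cd27 upstream: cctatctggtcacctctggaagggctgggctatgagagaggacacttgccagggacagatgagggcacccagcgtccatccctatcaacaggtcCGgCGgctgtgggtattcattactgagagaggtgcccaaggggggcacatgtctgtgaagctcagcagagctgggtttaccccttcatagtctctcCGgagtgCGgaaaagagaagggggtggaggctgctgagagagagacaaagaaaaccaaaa
At the CpG 76 bp before the start, WT replicate 2 had 18.9% of 37 reads and the other libraries had 0% to 3.23%. At the CpG 69 bp before it, all 6 libraries had 0%, from 7 to 18 reads.

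Thy1 (chr9:44043384-44048579, plus strand) had 26 CpGs, with a level of 55.5% and 51.1% in WT, 51.0% and 47.5% in hSTAT5B, and 47.7% and 40.7% in hSTAT5BN642H. Both hSTAT5BN642H libraries were below both WT libraries. The difference between these genotypes was -9.09 points, -5.58 without hSTAT5BN642H replicate 2 and -5.55 when reads were pooled over CpGs. Limma gave an adjusted p of 0.729. Relative to hSTAT5B the difference was -5.03 points by the mean over CpGs and 1.21 when reads were pooled, so its direction depended on how CpGs were weighted.

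The widest difference in Thy1 was in the first part of the gene. The CpG 1549 bp after the start, in an intron, was at 70.4% of 27 reads and 58.1% of 31 in WT, 23.1% of 13 and 45% of 20 in hSTAT5B, and 22.2% of 18 and 21.1% of 19 in hSTAT5BN642H. Both transgenic genotypes lay below WT, and hSTAT5BN642H was below all 4 others. Here hSTAT5BN642H minus WT was -42.6 points, with an unadjusted p of 0.00587 and an adjusted p of 0.728 in limma. The CpGs 1544 and 1567 bp after the start were on the same reads, and there WT replicate 1 stood at 69.2% and 65.4% while WT replicate 2 was at 29.0% and 25.8%, near the hSTAT5BN642H libraries at 21.1% to 26.3%. The lower mean at these 2 sites came mainly from WT replicate 1.

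Upstream of Thy1, 3 further CpGs had the hSTAT5BN642H libraries below the other 4 within 2.2 kb of the start. At 2189 bp before the start the levels were 33.3% and 20.8% in WT, 9.52% and 10.5% in hSTAT5B, and 6.67% and 7.69% in hSTAT5BN642H. At 1245 bp they were 66.7% and 84% in WT, 75% and 65.96% in hSTAT5B, and 61.9% and 20% in hSTAT5BN642H. The latter difference came mainly from hSTAT5BN642H replicate 2. At 577 bp, hSTAT5BN642H replicate 1 had 0 of 24 reads methylated, which allows a level of up to 12.5%, and replicate 2 had 11.8%, where WT had 20.8% and 25% and hSTAT5B 45.2% and 12%.

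At 8343 bp before the start, inside an intron of Gm39323, both WT libraries were fully methylated over 28 and 58 reads, hSTAT5B was at 94.7% and 90%, and hSTAT5BN642H at 81.2% and 86.7%. This CpG was the other one that the quasi-binomial model called for hSTAT5BN642H against WT, with an adjusted p of 0.0343, and limma gave 0.728. The 5 other CpGs of that stretch were at 71.4% or more in every library. Near the start, 316 bp after it, all libraries were at or below 6.25%, and the 5 intron CpGs from 3839 to 3932 bp after the start were at or below 18.5%. One of them, 3864 bp after the start, had the widest difference toward a higher level in Thy1, 6.82 points, from 13.6% of 22 reads in hSTAT5BN642H replicate 2 and 0% in every other library.

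Cd69 (chr6:129267325-129275436, minus strand) was represented by 2 CpGs, both upstream. At 8780 bp before the start the level was 68.2% of 22 reads and 34.8% of 23 in WT, 46.7% of 15 and 58.3% of 24 in hSTAT5B, and 18.8% of 16 and 20.7% of 29 in hSTAT5BN642H. Both hSTAT5BN642H libraries were below the other 4, while WT and hSTAT5B overlapped. Between hSTAT5BN642H and WT the difference was -31.8 points and WT replicates spread by an SD of 23.6, and limma gave an unadjusted p of 0.0323 and an adjusted p of 0.771. At 9084 bp before the start every library was at 6.38% or less. Over both CpGs the difference was -17.7 points, -10.1 without WT replicate 1, -9.61 with pooled reads and -8.52 over the 4 CpGs with 1 read in all libraries. Neither CpG is in the gene, and none in the gene itself had 5 reads in all libraries.

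Of the 7 genes, Cd69 had the widest range of its mean over the 6 libraries, 26.5 points, nearly all of it from the CpG that lies in a repeat. The 5 genes whose mean level followed it most closely over the 6 libraries, of 334 with 5 or more CpGs and an SD of at least 0.5 of that of Cd69, were Vmn1r194 (Pearson r of 0.967), Slamf1 (0.964), H2-M5 (0.960), Gm10490 (0.941) and Lfng (0.915). The points share libraries, and with 334 candidates and 6 points such values are a description. Slamf1, a relative of Cd2, was at 63.4% and 57.8% in WT, 55.9% and 61.5% in hSTAT5B, and 44.6% and 48.1% in hSTAT5BN642H. Both hSTAT5BN642H libraries lay below the other 4 there, as in 14.1% of all genes, and choosing genes by likeness to Cd69 favours that order.

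Cd2 (chr3:101275899-101287939, minus strand) had 24 CpGs, with a level of 66.6% and 64.9% in WT, 59.9% and 61.7% in hSTAT5B, and 61.7% and 62.9% in hSTAT5BN642H. With 5 reads required, both transgenic genotypes were below WT and overlapped each other. The differences from WT were -4.97 points for hSTAT5B and -3.46 for hSTAT5BN642H, with adjusted p values of 0.917 and 0.738 in limma. For hSTAT5BN642H it was -10.2 with 1 read required, -5.70 with 10 reads, and 0.115 in the gene body alone. The gene body value included the CpG 108 bp after the start, at 56% in hSTAT5BN642H replicate 2. Over the 10 gene body CpGs beyond 1 kb from the start the difference was -1.60, and over the 11 upstream CpGs -5.58. For hSTAT5B the difference from WT was -1.66 with 10 reads. Relative to hSTAT5B, hSTAT5BN642H was higher by 1.51 points with 5 reads, but the difference was -4.20 with 1 read and -4.03 with 10 reads, without overlap.

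Among the most deeply read sites was one in the Cd2 intron. The CpG 4329 bp after the start was at 56.1% and 54.7% in WT, 45.4% and 45.7% in hSTAT5B, and 35.8% and 38.2% in hSTAT5BN642H, from 106 to 218 reads a library. The 3 genotypes did not overlap, and the replicates of each were within 3 points. It gave -18.4 points for hSTAT5BN642H minus WT. The Wilson intervals of WT replicate 2, 45.2% to 63.9%, and hSTAT5BN642H replicate 2, 31.0% to 46.0%, overlapped narrowly. Limma gave an unadjusted p of 0.143 and an adjusted p of 0.854, and the quasi-binomial model an adjusted p of 0.074.

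Its neighbours on the same fragment did not show that order. The CpG 4364 bp after the start was at 71.8% and 84.3% in WT and 80% and 83.7% in hSTAT5BN642H, and that 4319 bp after it was at 21.9% and 32.7% in WT and 22.3% and 24.7% in hSTAT5BN642H. At each, hSTAT5BN642H overlapped WT, and at 4364 bp it lay above hSTAT5B, which was at 74.8% and 77.2%.

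Another Cd2 intron CpG set the transgenic genotypes apart in opposite directions. At 8339 bp after the start the level was 71.4% and 46.2% in WT, 20% and 12.5% in hSTAT5B, and 100% and 85.7% in hSTAT5BN642H, from 7 to 16 reads. The 3 genotypes did not overlap. The quasi-binomial model called it for hSTAT5BN642H against hSTAT5B with an adjusted p of 0.0206, and limma gave 0.774. The next CpG, 8310 bp after the start on the same reads, was at 28.6% and 46.2% in WT, 10% and 25% in hSTAT5B, and 50% and 0% in hSTAT5BN642H. There hSTAT5B again lay below WT, and hSTAT5BN642H overlapped both.

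At the start of Cd2, 108 bp after it in a coding exon, hSTAT5BN642H replicate 2 stood apart at 56% of 25 reads, where the other 5 libraries were at 0% to 16.7%. At 9123 bp before the start both transgenic genotypes were lower, at 23.1% and 44.4% in hSTAT5B and 30.3% and 40% in hSTAT5BN642H against 71.4% and 59.1% in WT, the widest difference toward a lower level in Cd2. At 9224 bp after the start the levels were 93.9% and 95.8% in WT, 87.2% and 69.4% in hSTAT5B, and 75.7% and 77.0% in hSTAT5BN642H. The 3 CpGs from 7816 to 7923 bp before the start were at 6.98% or less in all libraries. The 3 other Cd2 CpGs with hSTAT5BN642H below the other 4 libraries were at high levels in those 4. In hSTAT5BN642H, the one 4516 bp after the start was at 66.7% and 87.0%, that 4083 bp before it at 70% and 65%, and that 4544 bp before it at 83.8% and 84.2%, where the other 4 libraries were at 88.6% to 95.8%, 76.9% to 100%, and 96.7% to 100%.

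Cd5 (chr19:10717116-10739002, minus strand) had 25 CpGs, with a level of 69.4% and 71.6% in WT, 71.8% and 71.7% in hSTAT5B, and 66.5% and 67.2% in hSTAT5BN642H. With 5 reads required, both hSTAT5BN642H libraries were below the other 4. Against WT the difference was -3.59 points, -5.73 with 1 read required, -8.56 with 10 reads, -5.56 in the gene body, and 0.758 when reads were pooled. Limma, which worked on pooled reads, gave an adjusted p of 0.952 for this comparison. With 1 read, hSTAT5BN642H replicate 1, at 68.05%, was above both hSTAT5B libraries, at 65.5% and 64.9%. With pooled reads both hSTAT5BN642H libraries were above WT. For hSTAT5B minus WT the difference was 1.29 points, but -4.34 with 1 read, -4.04 with 10 reads, -0.779 in the gene body and -0.178 with pooled reads.

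Within Cd5, hSTAT5BN642H was lower near the start and in an intron, and higher in a coding exon. The 3 CpGs 546 to 589 bp after the start averaged 52.7% and 72.4% in WT, 53.3% and 69.7% in hSTAT5B, and 42.1% and 41.2% in hSTAT5BN642H, which lay below the other 4. Of these, the CpG 562 bp after the start had the widest difference in the gene, -32.9 points, and at 546 bp both hSTAT5BN642H libraries, at 46.4% and 32%, were below the other 4, at 47.1% to 72.7%. In the intron, the CpG 9450 bp after the start was at 67.7% and 55.9% in WT, 45.5% and 33.3% in hSTAT5B, and 33.3% and 44.2% in hSTAT5BN642H, and the CpG 9437 bp after it was at 81.0% and 57.9%, 52% and 50%, and 50% and 46.4%. At these 2 sites both transgenic genotypes were lower than WT and overlapped or met each other. At 9460 bp, on the same run, only hSTAT5BN642H was lower, at 34.8% and 28.6%, against 50% and 46.7% in WT and 55.6% and 40% in hSTAT5B, the last from 5 reads.

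In the Cd5 coding exon, the CpG 15813 bp after the start was at 40% and 83.3% in WT, 100% and 88.9% in hSTAT5B, and 84.4% and 86.2% in hSTAT5BN642H. That difference came mainly from WT replicate 1, with 15 reads. A CpG in a coding exon of the neighbour Vps37c, 28687 bp after the Cd5 start, was at 44.4% and 25% in WT, 86.7% and 75% in hSTAT5B, and 68.2% and 90% in hSTAT5BN642H, from 8 to 22 reads. Its difference of 44.4 points for hSTAT5BN642H minus WT was the widest toward a higher level in the set, and limma gave an unadjusted p of 0.00625 and an adjusted p of 0.728. At 24776 bp after the start, in a UTR of Vps37c, hSTAT5B was above WT and hSTAT5BN642H below it, with 90% and 86.7% in WT, 100% and 100% in hSTAT5B, and 79.5% and 73.2% in hSTAT5BN642H.

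Cd6 (chr19:10789341-10830058, minus strand), the neighbour and relative of Cd5, had 34 CpGs and, with 5 reads required, similar means in all libraries, 70.2% and 69.6% in WT, 68.3% and 69.8% in hSTAT5B, and 71.2% and 69.1% in hSTAT5BN642H. The genotypes overlapped, and limma gave an adjusted p of 0.999 for hSTAT5BN642H against WT. The difference was 0.192 points and turned to -0.856 without hSTAT5BN642H replicate 1 and to -0.122 without WT replicate 2. It was -1.88 with 1 read required and -2.97 over the 27 CpGs with 10 reads, where both hSTAT5BN642H libraries, at 73.8% and 73.05%, were below the other 4, at 75.6% to 77.4%. Single CpGs differed in both directions. Of the 34, 11 had both hSTAT5BN642H libraries below WT and 7 had both above, where 12.6% and 8.9% of all CpGs did.

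Averaged over the 6 CpGs within 1 kb of the start, Cd6 was at 10.2% and 19.1% in WT, 4.03% and 7.77% in hSTAT5B, and 7.65% and 2.75% in hSTAT5BN642H. Both transgenic genotypes were lower than WT there, but not at each CpG. The run at 281 and 295 bp after the start averaged 2.17% and 15.9% in WT, 8.82% and 11.1% in hSTAT5B, and 6.41% and 6.85% in hSTAT5BN642H. The run at 1585 and 1595 bp before the start was higher in both, with means of 0% in WT, 8.96% in hSTAT5B and 9.96% in hSTAT5BN642H. The CpG 425 bp after the start was at 18.4% and 35.5% in WT, 3.23% and 10.3% in hSTAT5B, and 4.29% and 2.78% in hSTAT5BN642H, from 29 to 70 reads. The CpG 404 bp after the start was at 13.2% and 23.3%, 3.33% and 6.90%, and 1.49% and 0%, where 0 of 36 reads allows a level of up to 8.33%. The latter had the smallest p of the 129 CpGs for hSTAT5BN642H against WT in limma, 0.000887, and an adjusted p of 0.728. At 174 bp after the start WT was at 16.7% and 12.5% and all 4 transgenic libraries were at 0%, although with 8 to 13 reads, which for a library of 10 reads allows up to 30%.

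Inside Cd6, the run of 4 intron CpGs from 11589 to 11659 bp after the start had a higher mean in hSTAT5BN642H. The CpG at 11589 bp was at 63.2% and 48.6% in WT, 88.9% and 83.9% in hSTAT5B, and 85.5% and 81.5% in hSTAT5BN642H, and that at 11630 bp was at 75.9% and 71.7%, 82.7% and 94.7%, and 94.9% and 84.3%. At both sites the transgenic libraries were all above WT. At 11600 bp hSTAT5BN642H and WT overlapped. At 11659 bp hSTAT5BN642H was at 100% and 91.7% and WT at 46.2% and 86.7%, while hSTAT5B replicate 2 was at 33.3% of 6 reads.

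In a Cd6 exon, CpGs 80 bp apart differed in opposite directions. At 4511 bp after the start the level was 75% and 59.3% in WT, 42.1% and 86.7% in hSTAT5B, and 93.8% and 100% in hSTAT5BN642H. At 4431 bp it was 100% and 95.3%, 97.1% and 100%, and 83.3% and 83.0%, in the same order. hSTAT5BN642H was thus above the other 4 at the former, where replicate 2 had 5 reads, and below them at the latter, where it had 66 and 47 reads. Their neighbours, at 4494 bp with a higher level and at 4433 bp with a lower one, also lay outside the other 4. A lower level was found at 31684 bp after the start in a coding exon, where the 4 WT and hSTAT5B libraries were at 100% and hSTAT5BN642H was at 84.6% and 85.2%. Further Cd6 sites with hSTAT5BN642H below the other 4 were at 48764 bp (71.9% and 70%, where WT had 86.0% and 83.1%), at 39375 bp (83.3% and 80%, where WT had 96.7% and 100%) and at 9344 bp (74.5% and 83.7%, where WT had 94.1% and 86.3%). At 1595 bp before the start hSTAT5BN642H was at 2.86% and 12.5% and the other 4 libraries were at 0%.

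Cd7 (chr11:121036747-121039418, minus strand) had 6 CpGs, with a level of 43.1% and 31.6% in WT, 18.3% and 33.8% in hSTAT5B, and 31.6% and 34.2% in hSTAT5BN642H. The genotypes overlapped. For hSTAT5BN642H minus WT it gave -4.44 points with all libraries and 1.26 without WT replicate 1, so the direction rested on that library. It was -10.15 without WT replicate 2, -12.1 with 10 reads required, -9.93 with pooled reads and 1.69 in the gene body. For hSTAT5B minus WT the difference was -11.3 points, the widest of the 7 genes in that comparison, with an adjusted p of 0.8195 in limma. It was -17.0 with 1 read required, -12.5 with 10 reads and -13.1 with pooled reads, each without overlap with WT. In the gene body it was -7.03, with overlap. One CpG, 5976 bp after the start and past the gene, had hSTAT5BN642H below WT, at 44.4% and 23.7% against 70.2% and 50%, with hSTAT5B at 37.5% and 65.8%. The widest difference toward a higher level, 6.15 points at 6333 bp after the start, had overlapping genotypes. The 2 CpGs within 1 kb of the start averaged 17.4% and 0% in WT, 0% and 3.33% in hSTAT5B, and 7.14% and 13.6% in hSTAT5BN642H. Of these, the one 50 bp after the start was at 0% in all libraries, from 7 to 22 reads. The methylated reads were thus all at the other, 95 bp after the start.

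**Figure D3:**
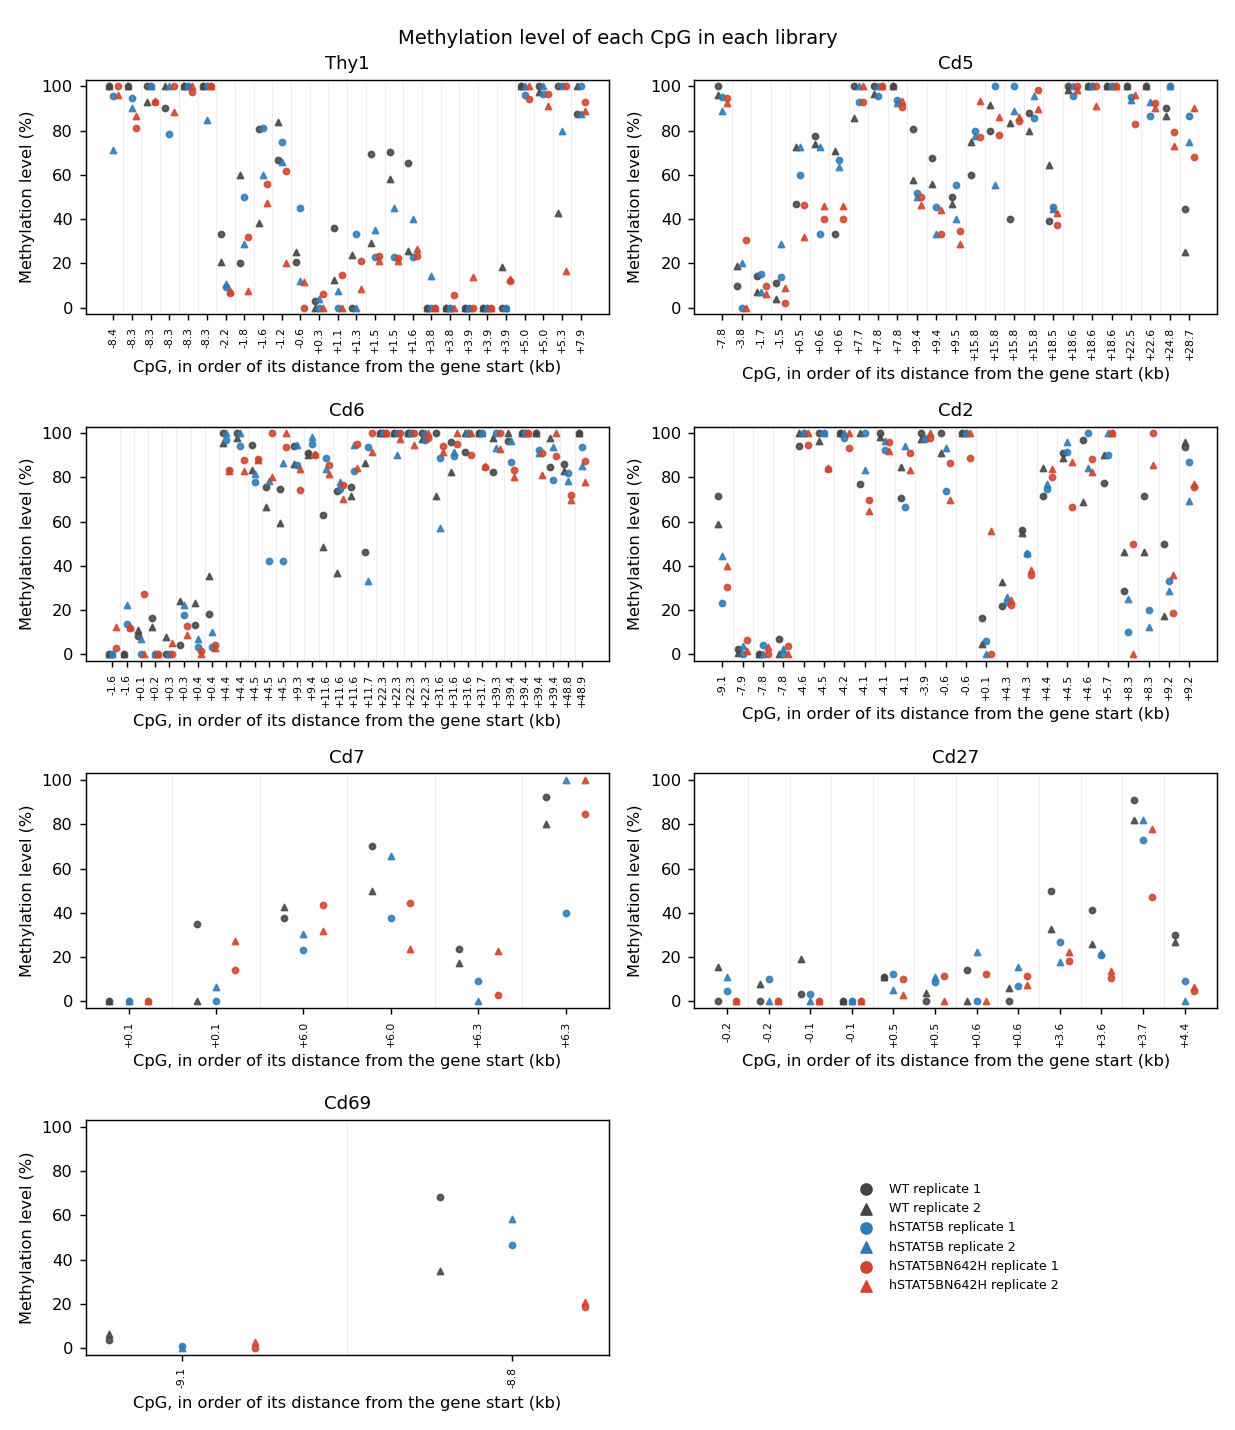
Methylation level in percent of each of the 129 CpGs in each library, 1 panel per gene, with CpGs in order of their distance from the gene start in kb (not to scale). Colours are genotypes, circles replicate 1 and triangles replicate 2. The CpGs close to the starts of Cd27, Cd6 and Cd7 mostly sit low, most gene body CpGs of Cd6 sit near 100%, and the colours separate at CpGs of high and low level as well as at intermediate ones.

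Both hSTAT5BN642H libraries lay outside the range of the other 4 at 25 of the 129 CpGs. They were below at 21, where 6.13% of all CpGs were, and above at 4, where 3.06% of all CpGs were. The 21 were spread over Cd6 (7), Thy1 (5), Cd2 (4), Cd5 (3), Cd27 (1) and Cd69 (1), and none was in Cd7. Cd6 also had the most CpGs of the 7 genes.

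**Figure D4:**
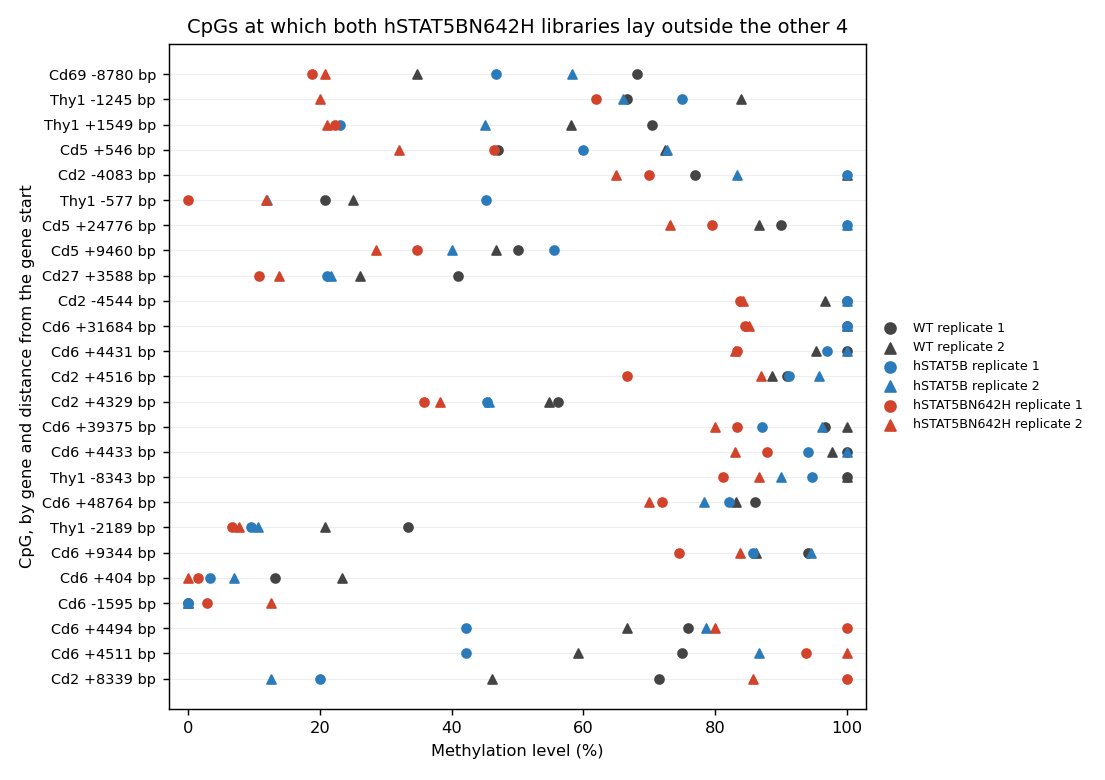
Methylation level in percent in each library at the 25 CpGs where both hSTAT5BN642H libraries lay outside the other 4, named by gene and distance from the gene start in bp. Colours are genotypes and shapes replicates. The red points lie left of the others in the upper 21 lines and right of them in the 4 lowest lines.

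Pooled over the genes by position, the difference between hSTAT5BN642H and WT was narrowest in the gene bodies, but the classes held different genes in different numbers. The 29 upstream CpGs lay in Cd2 (11), Thy1 (10), Cd5 (4), Cd6 (2) and Cd69 (2), and none in Cd7 or Cd27. Averaged over them, the level was 59.3% and 58.6% in WT, 57.0% and 57.2% in hSTAT5B, and 54.0% and 50.8% in hSTAT5BN642H. For the 24 CpGs within 1 kb of a start it was 21.8% and 25.6%, 18.97% and 22.3%, and 17.2% and 17.3%. In both classes hSTAT5BN642H was the lowest genotype, with no overlap. Over the 63 other gene body CpGs it was 71.9% and 68.8%, 67.3% and 67.4%, and 68.3% and 68.0%, where hSTAT5B was the lowest genotype. There hSTAT5BN642H minus WT was 3.08 points over 24 CpGs of Cd6, -2.28 over 14 of Cd5 and -8.22 over 12 of Thy1. It was -1.60 over 10 of Cd2 and -22.1 over 3 of Cd27, so the pooled value does not hold for each gene. The 13 downstream CpGs averaged 74.0% and 65.7%, 66.4% and 68.4%, and 65.8% and 60.6%, with WT overlapping both transgenic genotypes.

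The CpGs shared features that the choice did not use. In the 201 bases centred on each CpG, the median was 4 CpGs and 53.2% GC over the 129, against 7 CpGs and 55.2% GC over all CpGs, and a CCGG, the site of MspI, was in that window for all 129, as for 1175108 of all CpGs, which the method itself fixes. Of the 129, 16 (12.4%) lay in sequence marked as repeats, against 30.9% of all CpGs, and 9 of those 16 were in the Cd2 window. Read numbers were 5 to 220 a library and CpG, with a median of 25.

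STAT proteins bind a palindrome, TTCNNNGAA, which reads the same on both strands. It was present in the 201 bases around 12 of the 129 CpGs (9.3%) and around 4.34% of all CpGs, and the 12 fell into 3 genes, Thy1 (5), Cd2 (4) and Cd5 (3). Neighbouring CpGs among the 12 can share a motif. Of the 45 CpGs with both hSTAT5BN642H libraries below WT, 4 (8.89%) had it in that window, a share near that of the 129. The CpG itself lay inside the motif at 2 of the 129 (1.55%), 1 in Thy1 and 1 in Cd2, and at 2404 of all CpGs (0.204%). The Thy1 one was the intron CpG 1549 bp after the start, the second capital CG of the Thy1 stretch, which had the widest difference toward a lower level in hSTAT5BN642H of the 129. The Cd2 one, 4568 bp before the start, was at 94.1% to 100% in all libraries. Of all 2404 CpGs inside such a motif, 14.2% had both hSTAT5BN642H libraries below WT, where 12.6% of all CpGs did. Of 32851 promoters in the RefSeq table, 8.3% held the motif. Of the 7 genes, 2 matched that table, Cd27 and Cd5, and neither of their promoters, of the same length as the others, held it. A match is a description of letters and shows no binding.

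None of the genes below passed in limma, as no gene did. Of 14 genes for ligands and signalling partners of these proteins, 13 had a lower mean level in hSTAT5BN642H than in WT and 1 a higher one. The median difference was -0.988 points, where the median over all genes was -0.245. On the scale of the fit, where reads are pooled, Alcam, Cd2ap, S1pr1, Cbl and Ptpn6 were lower and the rest of the list higher. These directions thus depended on how CpGs were weighted. For Cd48, which encodes the ligand of CD2, the level was 61.0% and 47.8% in WT, 58.3% and 56.1% in hSTAT5B, and 51.2% and 51.1% in hSTAT5BN642H, which overlapped WT. For Cd70, the ligand gene of CD27, it was 29.1% and 25.04%, 27.8% and 30.5%, and 25.1% and 28.4%. Ubash3a, which encodes a suppressor of T cell receptor signalling and had the widest difference of the list, was at 74.3% and 65.7% in WT, 72.9% and 70.5% in hSTAT5B, and 65.3% and 67.3% in hSTAT5BN642H. There hSTAT5BN642H overlapped WT, and the lower mean came from WT replicate 1. On the scale of the fit Ubash3a was higher in hSTAT5BN642H than in WT, with a log2 ratio of 0.442 and an unadjusted p of 0.0513 in limma. S1pr1, the partner of CD69, was at 19.2% and 20.5% in WT and 18.0% and 19.6% in hSTAT5BN642H.

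Of 14 relatives of the 7 genes, 11 were lower and 3 higher in hSTAT5BN642H than in WT, with a median difference of -1.39 points. Slamf1, given above, had the widest difference, -14.2 points. In the tumor necrosis factor receptor superfamily, Tnfrsf18 was at 80.9% and 79.3% in WT, 71.3% and 75.5% in hSTAT5B, and 71.8% and 76.4% in hSTAT5BN642H, and Tnfrsf4 at 78.5% and 74.5%, 63.5% and 62.9%, and 68.4% and 70.7%. In both, all 4 transgenic libraries were below WT. Of 12 other T cell genes, 11 had 3 or more CpGs, 9 of them were lower and 2 higher, and the median difference was -1.04 points. On the scale of the fit, Cd44, Il7r, Icos, Tigit and Bcl11b were lower and the rest of those fitted higher. Icos, a costimulatory receptor gene, was at 82.5% and 71.9% in WT, 67.0% and 65.2% in hSTAT5B, and 67.6% and 65.95% in hSTAT5BN642H.

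Windows of genes that mark cell types were compared in the same libraries. The 8 CD8+ T cell genes averaged 55.8% in WT replicate 1, 50.4% in WT replicate 2, and 46.4% to 48.9% in the 4 transgenic libraries. Of these 8 genes, 6 were lower and 2 higher in hSTAT5BN642H than in WT, with a median difference of -1.75 points, and Cd8a and Cd8b1 had the widest differences. On the scale of the fit, Cd8a, Cd8b1, Cd3e and Cd3d were lower and the rest higher. In the Cd8a window WT replicate 1 stood apart at 65.7%, against 35.9% in WT replicate 2 and 29.8% to 42.6% in the others. The Cd8b1 window was at 44.2% and 45.6% in WT, 23.9% and 29.4% in hSTAT5B, and 13.9% and 14.3% in hSTAT5BN642H, with no overlap. Cd247 was higher in hSTAT5BN642H, at 44.6% and 46.4%, than in WT, at 41.2% and 41.4%, and the 5 others differed by -2.36 to 0.290 points. The B cell genes averaged 50.6% to 52.9%, the CD4+ T cell genes 28.2% to 30.0% and the myeloid genes 75.8% to 77.5% over the 6 libraries, and WT replicate 1 was the lowest of them for the B cell genes and inside the range for the others. Of the 7 B cell genes with 3 or more CpGs, 4 were lower and 3 higher in hSTAT5BN642H than in WT. The widest difference was in Cd79b, at 37.0% and 41.7% in WT, 37.1% and 46.4% in hSTAT5B, and 50.1% and 46.7% in hSTAT5BN642H. On the scale of the fit, Cr2 had the widest, a log2 ratio of -1.20. The 1 NK cell gene with 3 CpGs, Ncr1, was at 84.5% to 100%. WT replicate 1 was also the single highest library at 27 of the 129 CpGs, against 8 to 16 for each other library. The part of cell mixture in the differences was not tested, since methylation of these windows does not count cells.

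**Figure D5:**
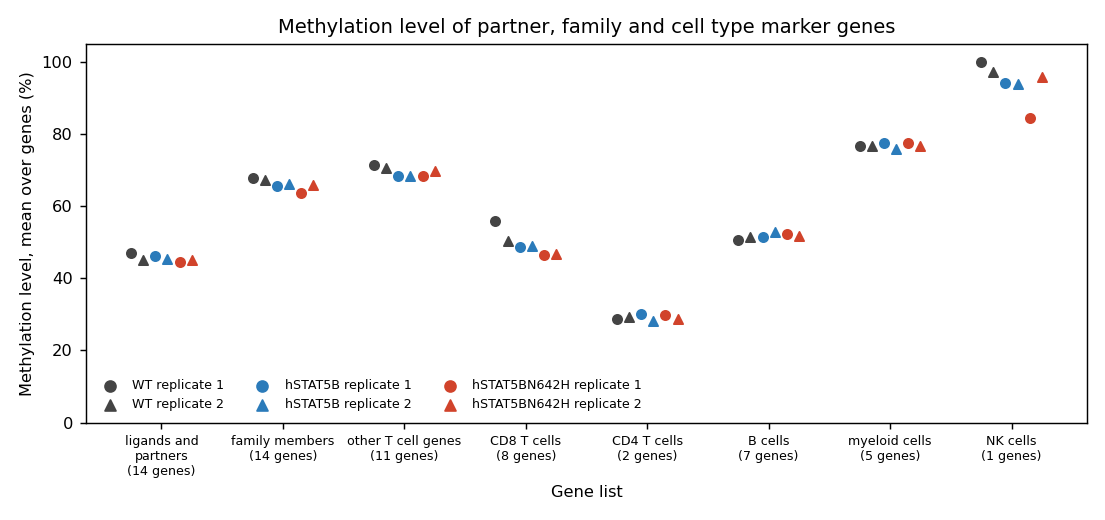
Methylation level in percent, averaged over the genes of each list with 3 or more CpGs, in each library. Colours are genotypes and shapes replicates. WT replicate 1 stands above the other libraries for the CD8+ T cell genes, and the means of the CD4+ T cell, B cell and myeloid lists are level across libraries, although single genes of a list can differ.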

How the data were processed

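RRBS was performed by the authors on genomic DNA of CD8+ T cells from lymph nodes, with 2 libraries per genotype. Per the labels, processing used Trimmomatic and BSMAP on GRCm38 (mm10), and their versions are not given in the sources used here. The deposited files list, for each CpG, the methylated reads and all reads, not normalized, and a score equal to the level times 1000 that the authors derived from them. The score was used as a check only. Totals were 43291086 to 67007186 reads per library, and 2597893 to 3445555 CpGs were listed. RRBS reads carry no molecular identifiers, so Wilson intervals and limits for 0 reads (3 counts) cover counting error only.

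The members and lists were chosen with earlier results of these data known. CpGs with 5 or more reads in all 6 libraries and under 1000 reads in each were kept, chromosome Y was left out, and a gene's level is the unweighted mean over its CpGs within 10 kb of the GENCODE M21 gene. Just inside the read limit were 11 CpGs, with median levels of 67.5% in WT, 70% in hSTAT5B and 85.1% in hSTAT5BN642H, and just outside it were 12, with 82.4%, 66.7% and 46.8%. The 7 windows hold 2526 CpGs, of which 463 were read in any library. Log2 ratios of methylated to unmethylated reads, each plus 1, were fitted with limma 3.58.1 in R 4.3.3 on all 6 libraries, for 20189 genes with 3 or more CpGs and for all CpGs, with Benjamini-Hochberg adjustment over all features. A quasi-binomial model with moderated dispersions was the other test (for CpGs, dispersions under 1 were set to 1, as for 59.7% of them, and moderation gave 1 common value), and both were tested on simulated data. Levels were tabulated with Python 3.11.15. The text names every gene of the set, and for each the CpGs of widest difference in each direction and those where both hSTAT5BN642H libraries lay outside the other 4. Other CpGs, such as those near the starts, were named after their values were seen. mRNA, ChIP and drug data were not used here.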

Additional observations from a re-analysis of the deposited data

How the results depend on the processing

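With 5 reads required, the mean difference of hSTAT5BN642H minus WT over the 129 CpGs was -4.43 points. It was -6.68 with 1 read required, -7.55 with 10 reads, -2.89 in gene bodies only, -2.30 with pooled reads, and -5.32 to -3.55 with 1 library left out, lower in each. The difference of hSTAT5B minus WT was -2.69 and became -5.23 with 1 read. The difference of hSTAT5BN642H minus hSTAT5B, -1.74, was -4.29 with 10 reads, but 0.180 in gene bodies and 0.706 with pooled reads. The cause was not tested. Over the 7 genes and all alternatives, 46 of 55 values of hSTAT5BN642H minus WT kept their direction, 47 of 55 of hSTAT5B minus WT and 48 of 55 of hSTAT5BN642H minus hSTAT5B. Cd27, Thy1 and Cd69 kept theirs in hSTAT5BN642H against WT in every alternative run. The quasi-binomial model called 1, 0 and 1 genes and 3207, 231 and 1841 CpGs for hSTAT5BN642H against WT, hSTAT5B against WT and hSTAT5BN642H against hSTAT5B, and limma 0 in each. Limma also called 0 genes with other read and CpG minimums, gene bodies, autosomes, mean levels, single genotype pairs or a library left out, and 0 CpGs with 10 reads or a library left out. Same-numbered libraries of different genotypes shared only a number, with correlations of deviations of -0.0302, -0.0524 and 0.0417 over 20189 genes. With a replicate block, limma called 0 genes and 0 CpGs, with 1528, 1078 and 1639 genes at an unadjusted p under 0.05. Read depth limited single CpGs to a median of 25 reads.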

Other observations

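Within the 7 windows, 189 CpGs had at least 1 read in all 6 libraries and 82 had 10 or more. Over the 82, the mean level was 65.7% and 63.2% in WT, 61.1% and 61.3% in hSTAT5B, and 57.5% and 56.2% in hSTAT5BN642H. The genotypes did not overlap there. Over the 189, the levels were 59.7% and 61.1%, 54.8% and 55.6%, and 55.6% and 51.9%, with the transgenic genotypes below WT and overlapping each other. The median SD between the 2 replicates of a genotype at a single CpG was 5.14 points in WT, 4.49 in hSTAT5B and 3.60 in hSTAT5BN642H.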
